A study of Mus musculus with 20 samples.

Results

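The cytosolic heat shock proteins described here are the protein products of 10 listed genes: the HSP70 genes Hspa1a, Hspa1b and Hspa8, the HSP90 genes Hsp90aa1 and Hsp90ab1, the HSP110 gene Hsph1, the J-domain genes Dnajb1 and Dnaja1, the small heat shock gene Hspb1 and the co-chaperone gene Bag3. Their probe sets were those whose platform annotation gives exactly 1 gene symbol, that symbol being on the list. This found 23 of the 45037 probe sets that are not controls, and 9 of the 10 genes. No probe set carried Hsp90ab1 as its single symbol, and this gene is not analysed here. Hsp90aa1 had 5 probe sets, Hspa8 had 4, Hspa1b and Dnaja1 had 3 each, Hsph1, Dnajb1 and Hspb1 had 2 each, and Hspa1a and Bag3 had 1 each. The rule used gene names and no measured value, though the list was chosen with earlier results of these data known.

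The study put liver RNA of male mice of the inbred strain C57BL/6J on Affymetrix 3′ arrays, 1 array per mouse. The high-fat group (10 mice) ate for 4 weeks a diet with 45% of its energy from fat, and the low-fat group (10 mice) a diet with 10%. All mice had been bought at 3 weeks of age and kept on the low-fat diet for a week beforehand, were 8 weeks old at the end, and were killed after a fast of 16 h. Groups that received a maple syrup extract in the high-fat diet belong to the wider design and are not analysed here.

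Cytosolic heat shock proteins are chaperones: they bind unfolded stretches of other proteins and help them fold, stay soluble or be degraded. HSP70 works in cycles of ATP hydrolysis that J-domain proteins start and nucleotide exchange factors end, and it hands many clients on to HSP90. When unfolded protein accumulates, heat shock factor 1 is released from chaperones, binds heat shock elements (inverted repeats of the letters GAA) and raises the transcription of these genes together. In liver the constitutive members are abundant at rest, and the inducible ones respond to heat, ischaemia, oxidants and handling of the tissue.

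The deposited values are probe set scores whose level runs like a log2 intensity but whose differences between arrays are compressed, by an amount that differs between probe sets. Differences are therefore given on a standardised scale: a mouse's score minus the low-fat mean, divided by the SD within diets of that probe set, so that the low-fat mice average 0. A standardised difference is the high-fat mean minus the low-fat mean in the same units, with a 95% interval. It says how well the diets separate and is neither a fold change nor a log2 fold change.

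Promoter sequences show what the letters of a heat shock element look like in these genes and how alike the inducible HSP70 pair is. The RefSeq promoter table (GRCm38.p6, 250 bases before to 50 after a start) held 11 promoters of 7 of the measured members, and none of Hspa8 or Hsp90aa1. Capitals mark matches to GAANNTTC, which is its own reverse complement, or, in Hsph1, to the full heat shock element of 3 alternating units, which was searched on both strands and contains GAANNTTC. Sequences are on the strand of the gene, and positions count from the start site.
Hspa1b, chr17:34959239-34959488, minus strand, from -250 to -1: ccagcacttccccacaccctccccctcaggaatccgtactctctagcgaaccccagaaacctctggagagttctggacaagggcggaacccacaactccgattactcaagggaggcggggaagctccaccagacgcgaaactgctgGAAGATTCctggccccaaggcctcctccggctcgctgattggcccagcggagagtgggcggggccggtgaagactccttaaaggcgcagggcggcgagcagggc
Hspa1a, chr17:34972157-34972406, minus strand, from -250 to -1: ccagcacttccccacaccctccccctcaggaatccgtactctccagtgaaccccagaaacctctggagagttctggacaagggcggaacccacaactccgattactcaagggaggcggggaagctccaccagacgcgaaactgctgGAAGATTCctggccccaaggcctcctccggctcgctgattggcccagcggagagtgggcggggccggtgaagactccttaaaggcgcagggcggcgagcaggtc
Hspb1, chr5:135887786-135887845, plus strand, from -133 to -74: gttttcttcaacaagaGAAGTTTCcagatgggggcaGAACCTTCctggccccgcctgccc
Dnaja1, chr4:40722333-40722362, plus strand, from -135 to -106: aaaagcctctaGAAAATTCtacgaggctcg
Hsph1, chr5:149636287-149636316, minus strand, from 21 to 50: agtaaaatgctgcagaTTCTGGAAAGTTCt
Bag3, chr7:128523603-128523632, plus strand, from 21 to 50: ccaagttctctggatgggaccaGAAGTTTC

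The upstream stretches of Hspa1a and Hspa1b were identical at 247 of 250 bases, and the match to GAANNTTC began at -104 in both. A match to GAANNTTC was found for 6 of the 7 members with a promoter (Hspa1a, Hspa1b, Hspb1, Dnaja1, Hsph1 and Bag3), against 9.04% of the 27025 genes in the table. The full element occurred in 1 of the 7, Hsph1, against 0.662% of genes. For Hsph1 and Bag3 the match lies after the annotated start, and for Dnaja1 it lies before 1 of 3 annotated starts. These are descriptions of letters in a window.

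Over the whole table, array medians ran from 6.567 to 6.5672, and no 2 arrays held identical values. This range is not small on the compressed scale, where the median SD of a probe set over arrays was 1.17e-05. The array medians also differed by diet. High-fat arrays other than replicate 8 had medians of 6.56714 or more, and low-fat arrays other than replicates 6, 8 and 9 had 6.56706 or less. The hepatocyte genes Alb (albumin) and Cps1 (a urea cycle enzyme) had high mean scores of 14.82 and 13.58 in the high-fat mice and 14.82 and 13.58 in the low-fat mice. Among the members, 2 mice stood low in their own diet. High-fat replicate 2 was the lowest high-fat mouse in 16 of the 23 member probe sets, and low-fat replicate 9 the lowest low-fat mouse in 18 of them. Over all probe sets the same mice were lowest in 11.2% and 12.6%, and their median deviation from the diet mean over all genes was 0.09 SD for each. Where leaving out 1 mouse turned a member's direction or moved it by over 1.5 times, the values without single arrays are given with that member. Whether separate cages stand behind the mice is not given, so the p-values rest on the spread between these animals.

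None of the 23 member probe sets passed a limma adjusted p of 0.05 for diet. Over all probe sets 2.32% passed (1.11% higher and 1.20% lower). Most nevertheless lay above the low-fat mean: 19 of 23 had a positive standardised difference, against 52.2% of all probe sets, and the median was 0.71 against 0.04. Without single arrays the members' median ran from 0.54 (low-fat replicate 9) to 0.76 (low-fat replicate 10), and it was 0.56 without low-fat replicate 8. With arrays centred on their medians 16 of 23 were positive, and after quantile normalisation 14 of 19. These scalings moved the median of all genes to -1.29 and -0.41, and the direction turned for 3 member probe sets under each, among them the most abundant of Dnaja1 (-0.21, centring) and that of Bag3 (-0.0503, quantile). At an unadjusted p of 0.05, 8 of 23 were higher and 0 lower by limma, against 7.86% of all probe sets higher, 7.28% lower and 15.1% in either direction. By the rank sum test 0 passed after adjustment and 7 were higher at that unadjusted p, against 7.11% of all probe sets. Counted by gene, 0 of 9 members passed, against 3.49% of all genes (1.71% higher and 1.78% lower). At an unadjusted p of 0.05, 4 of 9 were higher and 0 lower by limma, against 8.94% of all genes higher, 8.01% lower and 17.0% in either direction, and 8 of 9 members were above 0. These unadjusted counts depended on the setting, and are given here for either direction. They were 3 probe sets and 1 gene after quantile normalisation, 6 and 1 with arrays centred, and 4 and 1 with array weights. They were 2 genes when probe sets were averaged per gene, and 6 to 10 probe sets without single arrays. Of the 6 with arrays centred, Hsp90aa1 1433251_at and 1441827_x_at were lower. Centring called 396 of all 45037 probe sets higher and 38220 lower after adjustment, and quantile normalisation 375 and 3772 of 42357. The 23 values are not independent, since several probe sets read the same transcript and the members vary together among mice. In bulk liver, fewer cells of a type and less RNA per cell cannot be told apart.

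**Figure D1:**
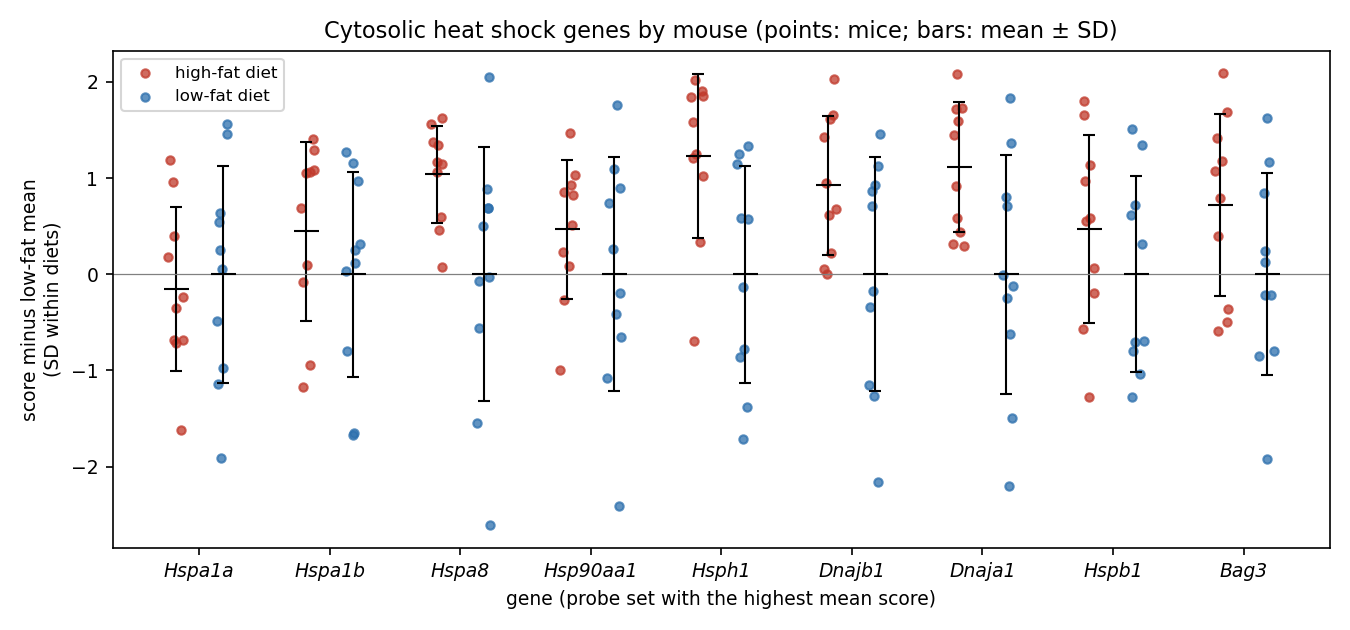
Score of each mouse on the standardised scale (low-fat mean at 0, units of the SD within diets) for the probe set with the highest mean of each of 9 genes, high-fat mice in red left of low-fat mice in blue, with bars for mean ± SD (n = 10 per diet). The diets overlap for every gene, the Hsph1 mean lies highest at 1.23, and the lowest low-fat points of Hspa8, Hsp90aa1 and Dnaja1 belong to replicate 9.

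**Figure D2:**
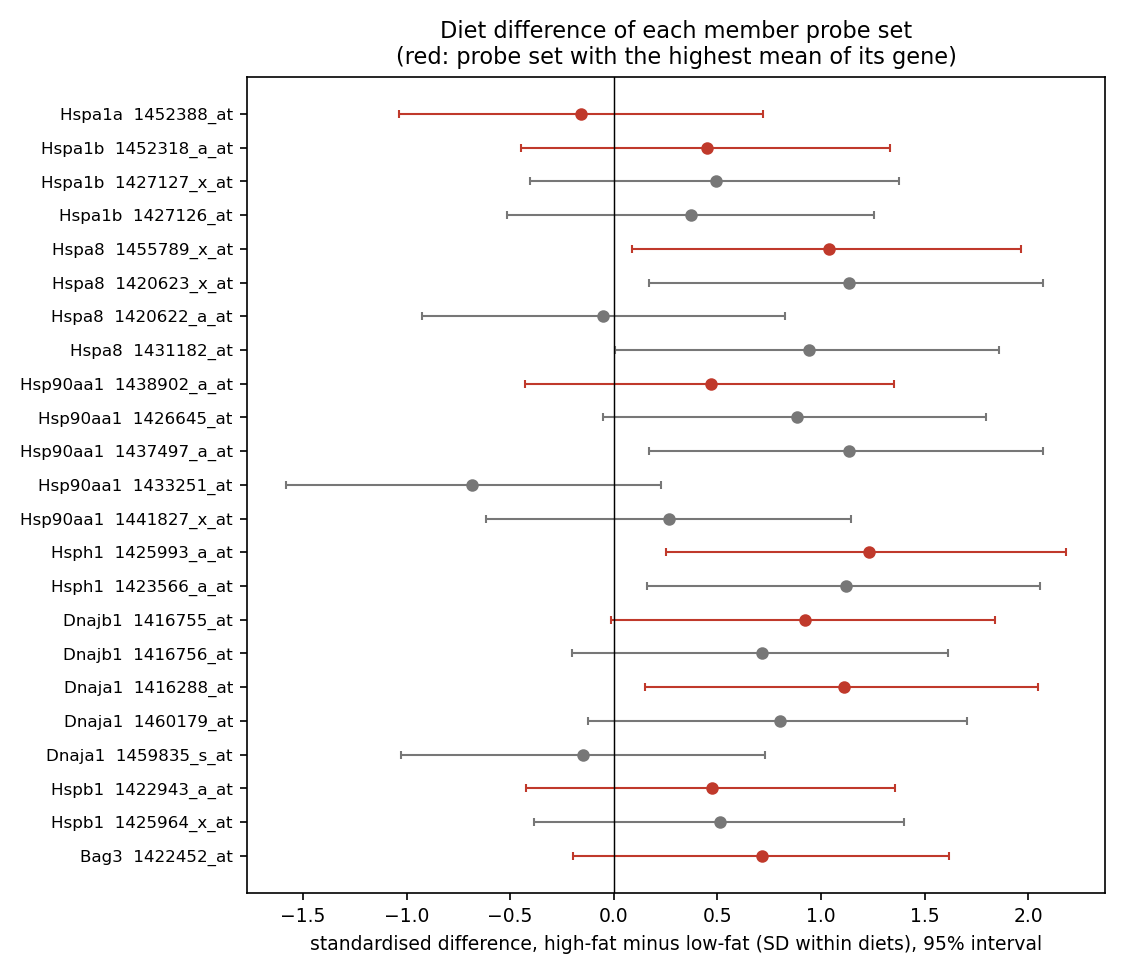
Standardised difference (high-fat minus low-fat, in SD within diets) with its 95% interval for each of the 23 member probe sets, with the probe set of highest mean per gene in red. Of the 23 points 19 lie right of 0, and every interval of Hspa1a, Hspa1b, Dnajb1, Hspb1 and Bag3 includes 0, as does that of the red Hsp90aa1 probe set.

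Hspa8 encodes the constitutive HSP70 (Hsc70), which folds new proteins and strips clathrin from vesicles. Its most abundant probe set (1455789_x_at) averaged a score of 13.05 in both diets. High-fat mice ran from 0.07 to 1.62 with a median of 1.16, and low-fat mice from -2.61 to 2.05 with a median of 0.23. The groups overlapped, and 9 of 10 high-fat mice exceeded the low-fat median. The standardised difference was 1.04 (95% interval 0.09 to 1.97; limma adjusted p = 0.255). The high-fat mice were also the more uniform, with an SD of 0.51 against 1.32 in low-fat mice on the same scale. A second abundant probe set (1420623_x_at) gave 1.13 (0.17 to 2.07; limma adjusted p = 0.206). The low-scoring 1431182_at averaged 6.264 ± 0.0102 in high-fat mice and 6.240 ± 0.0339 in low-fat mice (SD, n = 10 each), a standardised difference of 0.94 (0.00 to 1.86; limma adjusted p = 0.313). All 10 high-fat mice exceeded the low-fat median on that probe set. By contrast 1420622_a_at stood at -0.05 (-0.93 to 0.83), with high-fat mice from -0.89 to 0.70 and low-fat mice from -2.14 to 1.95. Without single arrays that probe set ran from -0.33 (low-fat replicate 9) to 0.19 (low-fat replicate 7), so it had no settled direction. Among mice 1420622_a_at nevertheless followed 1455789_x_at (r = 0.86) and 1420623_x_at (r = 0.71). The low-scoring 1431182_at, below the array median, followed the other Hspa8 probe sets less closely, at r from 0.40 to 0.59 (adjusted permutation p from 0.0592 to 0.254). Within high-fat mice its r with them ran from -0.53 to -0.19.

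Hspa1b and Hspa1a encode the stress-inducible HSP70, and their transcripts are so alike that probes of either can read both. Hspa1b (1452318_a_at) averaged 10.438 ± 0.00477 in high-fat mice and 10.436 ± 0.00547 in low-fat mice (SD, n = 10 each). High-fat mice ran from -1.17 to 1.41 with a median of 0.87, and low-fat mice from -1.67 to 1.27 with a median of 0.18. Nearly the whole range was shared by both diets, and 6 of 10 high-fat mice exceeded the low-fat median. The standardised difference was 0.45 (-0.45 to 1.33; limma adjusted p = 0.690), and the other Hspa1b probe sets gave 0.49 (1427127_x_at) and 0.37 (1427126_at). Leaving out single arrays, low-fat replicate 9 gave the lowest values of the 3 probe sets (0.28, 0.32 and 0.18, with 0.28, 0.33 and 0.20 without low-fat replicate 8) and high-fat replicate 2 the highest (0.67, 0.69 and 0.56). Hspa1a (1452388_at), with a mean score near 6.67, stood at -0.16 (-1.03 to 0.72; limma adjusted p = 0.910). Its high-fat mice ran from -1.62 to 1.19 with a median of -0.29, and its low-fat mice from -1.91 to 1.56 with a median of 0.15. For Hspa1a 4 of 10 high-fat mice exceeded the low-fat median, and without single arrays the difference ran from -0.41 (low-fat replicate 8) to 0.02 (low-fat replicate 4). A change of up to about 1.33 SD in Hspa1b lies within its interval, so these data do not show that the inducible HSP70 was the same on both diets.

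Hsp90aa1 encodes the stress-responsive cytosolic HSP90, which matures kinases and steroid receptors. Its most abundant probe set (1438902_a_at) ran from -0.99 to 1.47 in high-fat mice with a median of 0.67, and from -2.41 to 1.76 in low-fat mice with a median of 0.03. The standardised difference was 0.47 (-0.43 to 1.35; limma adjusted p = 0.675). Without low-fat replicate 9, the lowest point, it was 0.24, and without low-fat replicate 7, the highest, it was 0.71. Probe sets 1437497_a_at and 1426645_at were further apart, at 1.14 (0.17 to 2.07; limma adjusted p = 0.205) and 0.88 (-0.05 to 1.79; limma adjusted p = 0.353). On 1437497_a_at high-fat mice ran from -0.79 to 2.56 with a median of 1.20, and low-fat mice from -1.95 to 1.45 with a median of 0.10. The remaining pair, 1441827_x_at and 1433251_at, had mean scores of 6.193 and 6.315, below the array median, and stood at 0.27 and -0.68. Without single arrays 1441827_x_at ran from 0.05 (low-fat replicate 6) to 0.51 (low-fat replicate 3). The order of mice differed for 1433251_at, which correlated with the other 4 at r from -0.14 to -0.02. Probe set 1441827_x_at correlated with the brighter ones at r from 0.48 to 0.74.

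Hsph1 encodes HSP105, an HSP110-family nucleotide exchange factor that recharges HSP70 with ATP. It had the largest standardised difference of the members. On 1425993_a_at the score averaged 10.0526 ± 0.000982 in high-fat mice and 10.0512 ± 0.00130 in low-fat mice (SD, n = 10 each). High-fat mice ran from -0.70 to 2.02 with a median of 1.41, and low-fat mice from -1.71 to 1.33 with a median of 0.22. Only high-fat replicate 2 fell below the low-fat median, and when each high-fat mouse was set against each low-fat one, it was the higher in 83% of comparisons. The standardised difference was 1.23 (0.25 to 2.18; limma adjusted p = 0.162 over all probe sets and 0.136 over all genes). Leaving out each array in turn gave 1.12 to 1.60 and adjusted p from 0.0713, without high-fat replicate 2, to 0.259, without low-fat replicate 8. The second probe set (1423566_a_at) gave 1.12 (0.16 to 2.06; limma adjusted p = 0.212) and ordered the mice almost identically (r = 0.98).

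Dnaja1 and Dnajb1 encode type I and type II J-domain proteins, which deliver clients to HSP70 and trigger its ATPase. For Dnaja1 (1416288_at) high-fat mice ran from 0.29 to 2.08 with a median of 1.18, and low-fat mice from -2.20 to 1.83 with a median of -0.07. All 10 high-fat mice exceeded the low-fat median, although low-fat mice reached into the high-fat range. The standardised difference was 1.11 (0.15 to 2.05; limma adjusted p = 0.217). The other Dnaja1 probe sets gave 0.80 (1460179_at; -0.12 to 1.71) and -0.15 (1459835_s_at; -1.03 to 0.73), and the 3 correlated with each other at r of only 0.12 to 0.31. Without high-fat replicate 3, its lowest mouse, 1460179_at was 1.49, and without single arrays 1459835_s_at ran from -0.38 (low-fat replicate 5) to 0.05 (low-fat replicate 1). For Dnajb1 (1416755_at) high-fat mice ran from 0.00 to 2.03 with a median of 0.81, and low-fat mice from -2.16 to 1.46 with a median of 0.27. Its standardised difference was 0.92 (-0.01 to 1.84; limma adjusted p = 0.326), and that of 1416756_at was 0.71 (-0.20 to 1.61).

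Hspb1 encodes the small heat shock protein HSP25, which holds unfolding proteins without ATP. On 1422943_a_at high-fat mice ran from -1.28 to 1.80 with a median of 0.57, and low-fat mice from -1.27 to 1.51 with a median of -0.19. The ranges almost coincided, and the standardised difference was 0.47 (-0.42 to 1.36; limma adjusted p = 0.669), with 0.51 on 1425964_x_at. Without high-fat replicate 2 the first was 0.72. Bag3 encodes an HSP70 co-chaperone that couples it to small heat shock proteins and selective autophagy. Its high-fat mice ran from -0.59 to 2.09 with a median of 0.93, and its low-fat mice from -1.92 to 1.62 with a median of -0.04. The standardised difference was 0.72 (-0.20 to 1.62; limma adjusted p = 0.473).

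The spread itself ran 1 way across the members. In 21 of 23 probe sets the SD among high-fat mice was smaller than among low-fat mice, with a median ratio of 0.75, against 50.6% and a ratio of 0.99 over all probe sets. Without low-fat replicate 9 the count was 18 and the ratio 0.92. The 2 exceptions were 1433251_at of Hsp90aa1 and 1460179_at of Dnaja1. These are descriptions, since no test of the spread was run.

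Members varied together among mice of the same diet. Correlations were taken over 20 mice on deviations from each mouse's diet mean, with p-values from permutations within diets adjusted over the 36 pairs of the 9 genes. By Pearson's r, 24 of 36 pairs passed an adjusted p of 0.05, and 21 passed by Spearman's rho as well. The median r was 0.62 (0.59 within high-fat mice and 0.62 within low-fat mice), and 35 of 36 pairs were positive. Over all pairs of 1820 genes, taken at regular steps from the gene table, the median r was 0.00228, and 1.20% of pairs reached the members' median. Leaving out each array in turn gave a median r between 0.53, without low-fat replicate 9, and 0.66, without low-fat replicate 5. Points share the array, so anything that moves many probe sets of 1 array enters these values.

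**Figure D3:**
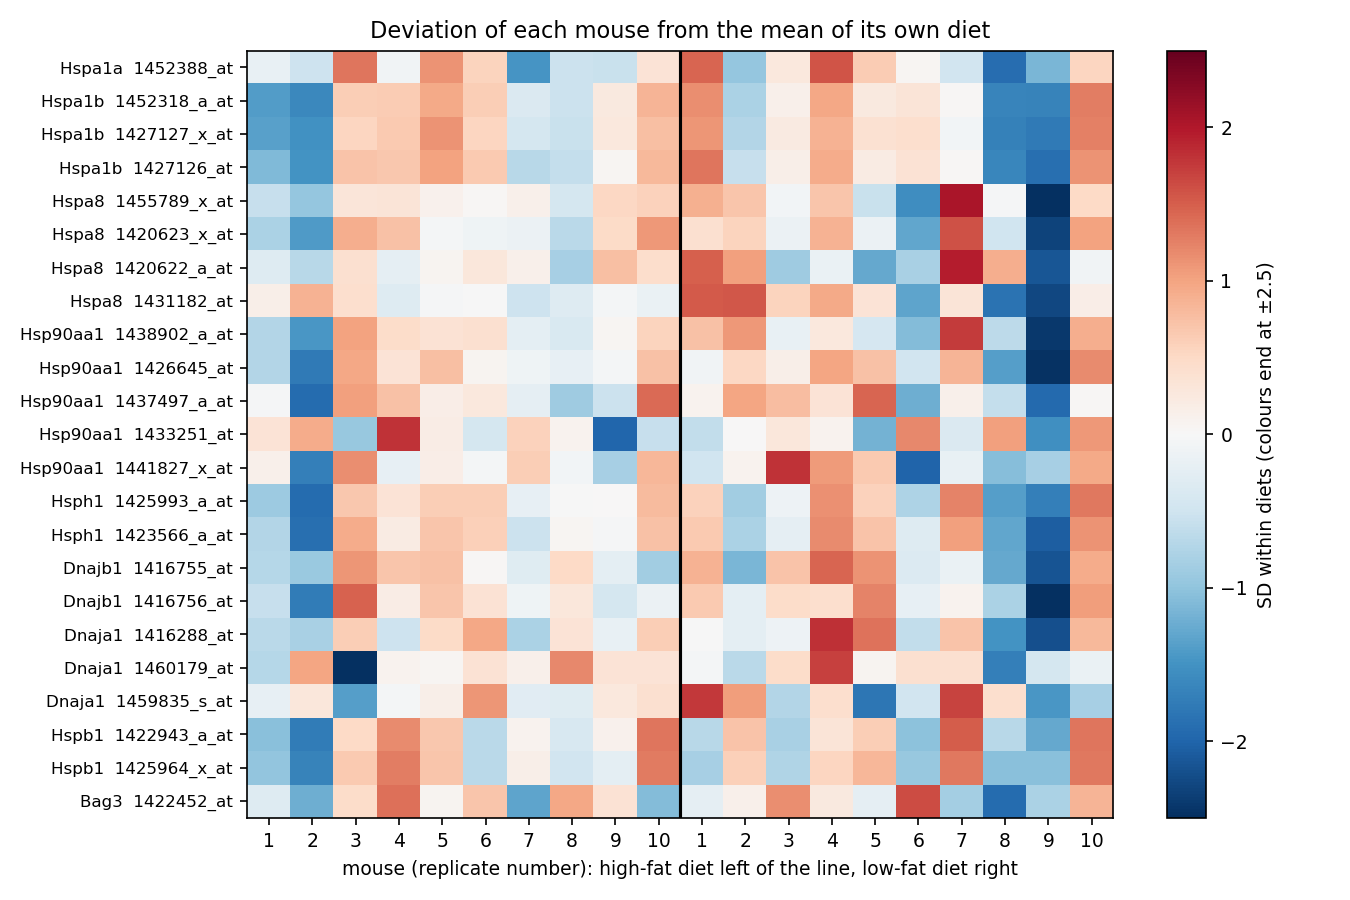
Deviation of each mouse from the mean of its own diet, in SD within diets, for the 23 member probe sets (rows) and 20 mice (columns, high-fat left of the line and low-fat right of it). High-fat replicates 1 and 2 and low-fat replicates 8 and 9 form blue columns across most rows, and low-fat replicate 9 lies below its diet mean in all 23.

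**Figure D4:**
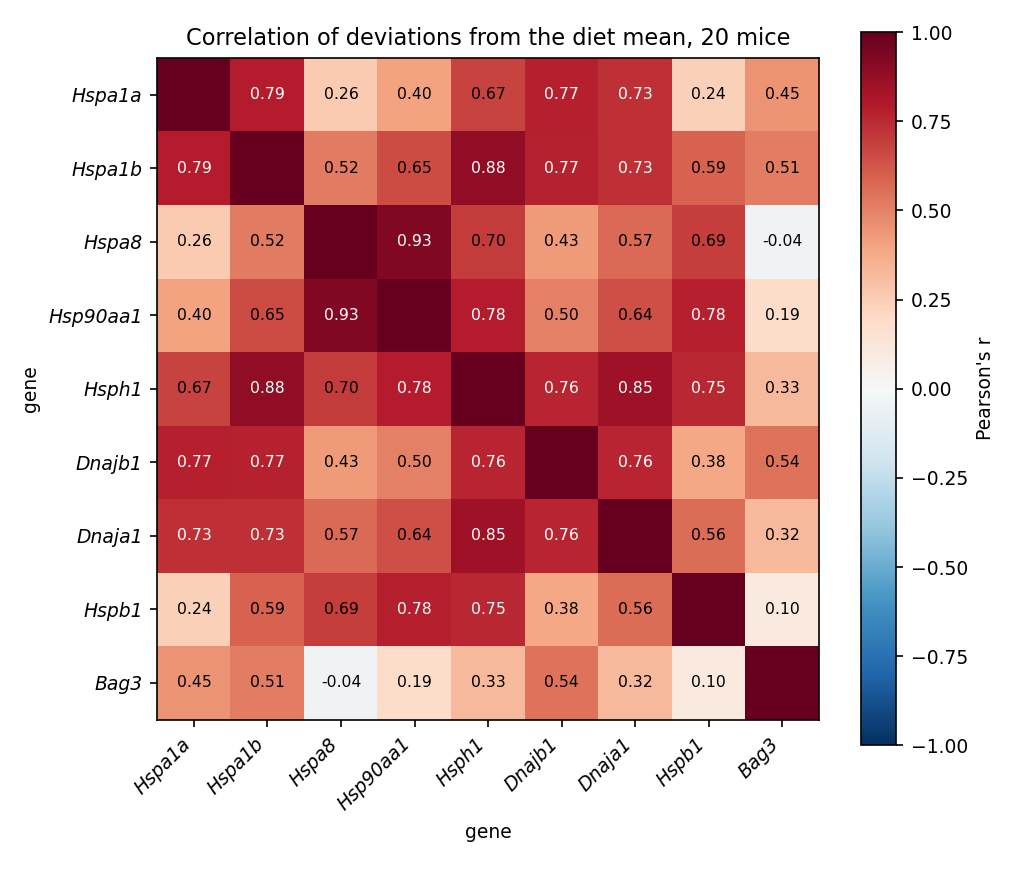
Pearson's r between 9 member genes over 20 mice, on deviations from the diet mean. Hspa8 and Hsp90aa1 share the highest value (0.93), Hspa1b and Hsph1 follow (0.88), and Bag3 has the palest row.

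The highest correlation was between the abundant chaperones Hspa8 and Hsp90aa1 (r = 0.93, rho = 0.86, adjusted permutation p = 0.00012 and 0.000504). Without the 2 mice farthest from the Hspa8 median, low-fat replicates 7 and 9, r was 0.85. Hspa1b and Hsph1 had r = 0.88 and rho = 0.81 (adjusted permutation p = 0.00012 and 0.000504), and r was 0.83 without low-fat replicates 8 and 9. Hsph1 and Dnaja1 had r = 0.85 and rho = 0.89 (adjusted permutation p = 0.00012 and 0.00036), and r was 0.83 without high-fat replicate 2 and low-fat replicate 9. The raw p of these Pearson values, 1e-05, is the smallest the permutations can give. Hspa1a followed its near-copy Hspa1b (r = 0.79, rho = 0.83, adjusted permutation p = 0.00078 and 0.000504; 0.73 without low-fat replicates 4 and 8) and Dnajb1 (r = 0.77, rho = 0.81, adjusted permutation p = 0.000945 and 0.000504; 0.71 without those mice). Hspa1a and Hspa8, the inducible and constitutive HSP70, did not pass (r = 0.26, rho = 0.28, adjusted permutation p = 0.370 and 0.308), nor did Hspa8 and Dnajb1 (r = 0.43, rho = 0.33, adjusted permutation p = 0.152 and 0.256). Bag3 stood outside: with Hspa8 it had r = -0.04 and rho = -0.03 (adjusted permutation p = 0.891 and 0.921). With Hspa1b and Dnajb1 it passed by r only (r = 0.51 and 0.54, adjusted permutation p = 0.0426 and 0.0304; rho = 0.43 and 0.47, adjusted permutation p = 0.0931 and 0.0698). Without the 2 farthest mice those r were 0.33 and 0.55. With the mean of each gene's probe sets, Hsph1 and Dnaja1 passed by r only (r = 0.56, rho = 0.51, adjusted permutation p = 0.0372 and 0.06). Their r was then 0.06 within high-fat mice and 0.83 within low-fat mice. In that setting Hspa8 and Hsp90aa1 (r = 0.73) and Hspa1b and Hsph1 (r = 0.89) still passed by r and rho.

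The same mice were low in many members. The median deviation of the 9 members was -1.21 SD in high-fat replicate 2 and -0.70 in high-fat replicate 1, and -1.71 in low-fat replicate 9 and -1.38 in low-fat replicate 8. All 9 members were below the diet mean in each of these 4 mice. High-fat replicates 3 and 5 and low-fat replicates 4 and 10 had all 9 above it. Over all genes the medians of these mice were 0.09 and -0.0036 SD in high-fat replicates 2 and 1, and 0.09 and -0.14 SD in low-fat replicates 9 and 8. In low-fat replicate 9 the 3 control probe sets for 18S ribosomal RNA stood at -2.10, -2.32 and -1.98 SD. Other controls read the 3′ and the 5′ end of a transcript, given here in that order. In low-fat replicate 9 actin stood at 0.94 and 0.01 SD and Gapdh at 1.39 and 0.45. Pyruvate carboxylase stood at 0.06 and -2.29, and the transferrin receptor at -0.65 and -0.70. In low-fat replicate 8 the 18S probe sets stood at -1.01, -0.70 and -0.83 SD. There actin stood at 1.41 and 0.70 and Gapdh at -1.20 and -1.44. Pyruvate carboxylase stood at 0.27 and 0.11, and the transferrin receptor at 0.18 and 1.63. The part of RNA quality or tissue handling in the members' values was not tested.

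Among all 18193 genes, those most like a member across the 20 mice were looked up for 3 anchors, by Pearson's r on deviations from the diet mean, with no test. For Hspa1b the nearest genes were Hsph1 (r = 0.88) and Hspa1a (0.79), both members. The nearest non-members were Ahsa2 (0.79), a gene related to the HSP90 activator Ahsa1, Thap2 (0.76), Hikeshi (0.73), whose human protein carries HSP70 into the nucleus, and Chordc1 (0.73), an HSP90 co-chaperone. Dnajb1 and Dnaja1 ranked 4 and 6 of all genes for the same anchor, and the remaining members from 24 (Hsp90aa1) to 235 (Bag3). For Hspa8 the nearest non-members were Cct4 (0.91), a subunit of the cytosolic chaperonin TRiC, Myo3b (0.82), Hspe1 (0.82), the mitochondrial co-chaperonin, and Rab9 (0.82), a small GTPase of endosomes. Myo3b had a mean score of 6.085, below the array median. For Hsp90aa1 they were Tmem33 (0.86), Rab9 (0.86), and the TRiC subunits Cct3 (0.85) and Cct4 (0.83). Hspa8 was nearest of all genes to Hsp90aa1, and Hsp90aa1 to Hspa8. Other members were far from these anchors: Hspa1a ranked 3828 for Hspa8 and 1307 for Hsp90aa1, and Bag3 9426 and 4544. Without the 2 mice farthest from the Hspa8 median, r with Hspa8 was 0.85 for Cct4, 0.80 for Myo3b, 0.66 for Hspe1 and 0.58 for Rab9. In the same check the non-members named for Hspa1b ran from 0.61 to 0.73, and those for Hsp90aa1 from 0.71 to 0.80.

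Among genes that work with the members, calls were near the share over all genes (3.49%), with 1 or 0 in each list. Of 16 HSP70 co-chaperones 0 rose and 1 fell: Bag1, a nucleotide exchange factor that links HSP70 to the proteasome, stood at -2.60 (95% interval -3.79 to -1.36; limma adjusted p = 0.0026). Its high-fat mice ran from -4.02 to -1.11 with a median of -2.52, and its low-fat mice from -1.96 to 1.70 with a median of -0.30. The median of that list was -0.03, against 0.04 over all genes. In the TRiC chaperonin, the ring that folds actin and tubulin, 1 of 8 subunits rose and 0 fell. All 8 were above 0, with a median of 1.39. The subunit that rose was Cct3 (1.76, 0.69 to 2.78; limma adjusted p = 0.0307), while Cct2 (1.59), Cct7 and Tcp1 (1.49) had limma adjusted p from 0.0547 to 0.0655.

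The other cytosolic chaperone lists had no gene past the threshold. Of 12 measured HSP90 co-chaperones 7 were above 0, with a median of 0.25, from the adaptor Stip1 (1.09) to the myosin chaperone Unc45a (-1.11). Of 6 other small heat shock genes 4 were above 0, from Hspb8, which pairs with Bag3 (1.48, limma adjusted p = 0.0671), to Hspb6 (-1.39, 0.0881). Prefoldin, which feeds TRiC, had 5 of 6 above 0 and a median of 0.24, and other HSP70-family genes 2 of 5 and -0.69. Of the heat shock factor list 1 of 3 measured was above 0, with Hsf2, a heat shock factor, at 0.43 (limma adjusted p = 0.686) and Hsbp1, which binds heat shock factor trimers, at -0.66 (0.507). Hsf1 had no single-symbol probe set here. Among 12 immediate early genes, transcripts induced within minutes of many stimuli, 11 were above 0 with a median of 0.74, close to that of the members (0.72), and 0 passed. Fos was the nearest (1.25, limma adjusted p = 0.130). Of 7 measured hepatocyte genes 3 were above 0, with a median of -0.07, and 0 passed. Ttr, a thyroid hormone carrier, stood at -3.12 (limma adjusted p = 0.224), with an SD of 3.14e-07 score units in high-fat mice; limma draws each variance towards a common value, which weighs on probe sets of such small SD. The Kupffer cell and leukocyte list had 3 of 8 above 0 and a median of -0.12, and the stellate, endothelial, cholangiocyte and erythroid lists had medians of 0.08, 0.46, -0.20 and -0.16. Of 4 pancreas genes 3 were above 0 and Cela1 rose (1.80, limma adjusted p = 0.0265), and of 5 muscle genes 2 were above 0 and Mylpf fell (-1.99, limma adjusted p = 0.0209). Their part in the members' values was not tested.

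Chaperones of the same families in other compartments were set beside the members. Hspa5 (BiP), the HSP70 of the endoplasmic reticulum, ran from 0.86 to 4.63 in high-fat mice with a median of 3.21, and from -1.29 to 0.93 in low-fat mice with a median of 0.16, a standardised difference of 2.99 (limma adjusted p = 0.000899). It was 1 of 5 that rose among 8 such genes (0 fell), with Hsp90b1, Hyou1, Dnajb11 and the mitochondrial chaperonin Hspd1 (2.11, limma adjusted p = 0.0115), against 1.71% of all genes. The mitochondrial genes Hspe1 (1.10, limma adjusted p = 0.194), Trap1 (-0.21, 0.869) and Hspa9 (-0.50, 0.689) did not pass. Each gene is given by its probe set of highest mean: over all probe sets Hspa5 ran from 0.98 to 2.99 (3 probe sets), Hyou1 from 0.72 to 2.25 (3), Hsp90b1 from 2.33 to 3.03 (2) and Hspa9 from -0.84 to 0.22 (5). Cytosolic Hspa8 stood 1.95 SD below Hspa5 (adjusted permutation p = 7.5e-05, two-sided, over 6 pairs). All 10 high-fat mice had a lower standardised value for Hspa8 than for Hspa5. The permutations exchanged the diet labels of both genes of a pair together. The p-values of these pairs therefore refer to no diet difference in either gene, and do not test whether both differed equally between diets. Hspa1b stood 2.54 SD below Hspa5 (a difference of -2.54, adjusted permutation p = 7.5e-05), again in all 10 high-fat mice. For HSP90, Hsp90aa1 minus Hsp90b1, the form in the endoplasmic reticulum (2.33), was -1.86 (adjusted permutation p = 7.5e-05; 10 of 10 mice). For the J-domain proteins Dnajb1 minus Dnajb11 (2.79) was -1.87 (adjusted permutation p = 7.5e-05; 10 of 10 mice).

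Of the 5 pairs with the endoplasmic reticulum, the gap between these probe sets was smallest in the HSP110 family: Hsph1 minus Hyou1, its counterpart in the endoplasmic reticulum (2.25), was -1.01 (adjusted permutation p = 0.00329; 9 of 10 mice). The mitochondrial chaperonin Hspd1, which is in no pair, stood at 2.11. In the only pair with a mitochondrial gene the gap ran the other way. Hspa8 minus Hspa9, the mitochondrial HSP70 (-0.50), was 1.53 (adjusted permutation p = 0.0258), positive in 10 of 10 high-fat mice. That call was lost with the mean of each gene's probe sets (1.28, adjusted permutation p = 0.0679). These are differences in separation of the diets, in SD units of each gene, and the rise of the endoplasmic reticulum genes was known when the pairs were chosen. The 2 pairs with Hsp90ab1 could not be formed.

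**Figure D5:**
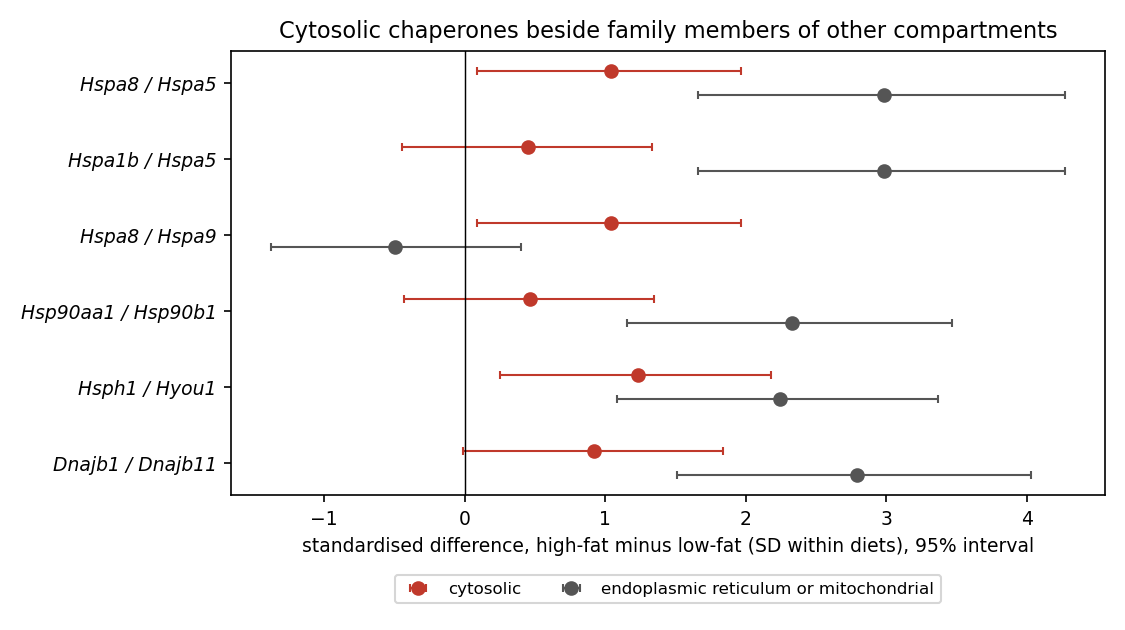
Standardised difference (high-fat minus low-fat, in SD within diets) with 95% interval for 6 pairs of a cytosolic chaperone (red, upper) and a family member of the endoplasmic reticulum or mitochondria (grey, lower). The 4 endoplasmic reticulum genes lie between 2.25 and 2.99, the cytosolic genes between 0.45 and 1.23, and Hspa9 at -0.50.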

How the data were processed

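The deposited table holds a probe set score per array, 1 array for each of 20 mice. The steps by which the authors made this score were not given in the sources used here. Groups came from the labels. Of the 45037 probe sets that are not controls, 34945 had 1 gene symbol in the platform annotation (dated platform names), 932 had several and were not named, and 9160 had none; 64 controls were left out. Columns left unmapped numbered 0.

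The diet effect was fitted in limma 3.58.1 (R 4.3.3; lmFit, eBayes, no covariate, two-sided) over all probe sets, and over 18193 genes by each gene's single-symbol probe set with the highest mean. Benjamini-Hochberg adjustment ran over the whole table, with a threshold of 0.05 and no filter on low scores. The design had allowed for log2 values or scores; sizes are standardised differences with noncentral t intervals. The rank sum test was exact, with tied statistics moved towards the null.

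Correlations and differences between paralogs used 100000 permutations of mice (Python 3.11.15). For the latter the SD within diets was recomputed each time, and the diet labels of both genes were exchanged together. Their null was no diet difference in either gene, and not equal differences. The diet comparison was tested on simulated data.

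Members and lists were chosen with earlier results of these data known. Named genes were all member probe sets, of each other list the genes past the threshold and at most 4 of smallest adjusted p, the paralogs, and the 4 genes most like Hspa8, Hspa1b and Hsp90aa1. Alb and Cps1 were chosen after their values were seen. Alternatives were other scalings, a rank test, a stricter threshold, other variance models, array weights, a filter on dim features, no cross-hybridising probe sets, a replicate block, the mean of each gene's probe sets and leaving out each array. Same-numbered mice of the diets deviated together at r from -0.16 to 0.26, so the numbers were not found to pair them.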

Additional observations from a re-analysis of the deposited data

Results flagged for a closer look

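A gap test asked whether 1 mouse lay far from the other 9 of its diet, in 68 groups of 10 over the member probe sets, the paralogs and other genes past the threshold. It picked 3 of the 68 groups, and chance picks about 1 in 20, so the number is no more than chance gives. For Dnaja1 (1460179_at) high-fat replicate 3 was the lowest, with a gap over range of 0.52, and without it the standardised difference was 1.49 (limma adjusted p = 0.0917). For Dnajb1 (1416756_at) low-fat replicate 9 was the lowest, with a gap over range of 0.484, and without it the difference was 0.54 (limma adjusted p = 0.635). For Mylpf low-fat replicate 4 was the lowest, with a gap over range of 0.528.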

How the results depend on the processing

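Of 654 values of member probe sets under other settings, 631 kept their direction and their side of the threshold. A further 18 reversed (12 of them in fits without 1 array), and 5 kept their direction and newly passed. Among those that reversed, Hsp90aa1 1441827_x_at under centring also passed. The number of member probe sets past the threshold was 0 in every setting run except centring of arrays on their medians, which gave 6 (2 of Hsph1, 1 of Hspa8 and 3 of Hsp90aa1, of which 1433251_at and 1441827_x_at were lower), and 1 member gene. That setting lowered the median standardised difference of all genes to -1.29, against 0.04, and called 38616 probe sets (396 higher, 38220 lower) and 15098 genes (215 higher, 14883 lower), against 1043 (501 higher, 542 lower) and 635 (312 higher, 323 lower). Quantile normalisation moved the median to -0.41 and called 4147 probe sets (375 higher, 3772 lower) and 1483 genes (142 higher, 1341 lower). A threshold of 0.01 called 272 and 212. The replicate block called 538 probe sets and 421 genes and 0 members; the numbers were not found to pair the mice. Direction turned under centring for Dnaja1 1416288_at (-0.21) and 1460179_at (-0.64) and Hsp90aa1 1441827_x_at (-1.09), and under quantile normalisation for Bag3 (-0.0503), Hsp90aa1 1441827_x_at (-0.83) and Dnaja1 1459835_s_at (0.37). The values above 0 were then 16 of 23 under centring and 14 of 19 under quantile normalisation, which left 4 probe sets with 1 value on all arrays. Leaving out 1 array in turn turned Hspa8 1420622_a_at (-0.33 to 0.19), Hspa1a (-0.409 to 0.0164) and Dnaja1 1459835_s_at (-0.383 to 0.0503), and gave 768 to 1124 probe sets, 498 to 720 genes and 0 members past the threshold. By Pearson's r, pairs of correlated members numbered 24 of 36, 21 when probe sets were averaged per gene, 26 after centring and 11 of 21 after quantile normalisation. Pairs that passed by both r and rho numbered 21, and 15 when probe sets were averaged per gene. The median r without the 2 farthest mice was 0.53, and 0.39 with that averaging. The difference between Hspa8 and Hspa9 was 1.28 when probe sets were averaged per gene and no longer passed; the other paralog differences that could be computed kept their call under that setting and both scalings. The scaling alternatives for correlations and paralogs and the correlation without 1 array were chosen after seeing the data. Causes of these changes were not tested beyond what the settings do by construction. With 10 arrays a diet, the number of arrays limits the precision.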
